A study of Mus musculus with 4 samples.

Results

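The regions described here are 816 pairs of H3K9me3 islands that were called almost alike in wild-type and Suv39h1-knockout CD8+ T cells of the mouse. An island is a stretch of the genome in which the peak caller found more ChIP-seq reads than its background allows. A pair holds 1 wild-type (WT) and 1 knockout (KO) autosomal island whose overlap is at least 80% of the length of each. The pairs took 816 of 12368 WT islands (6.6%, exact 95% binomial interval 6.17 to 7.05) and 816 of 25409 KO islands (3.21%, 3.00 to 3.44). The pairs were chosen by the called edges of the islands in both libraries, so the likeness of position and length within a pair was fixed by the rule and is no finding, and the read densities of the same islands are given as a description with no test.

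Both libraries came from CD8+ T cells of C57BL/6 background that were cultured for 3 days in IL-2 plus antibodies against CD3 and CD28. The wild-type library carries no named alteration, and the other is labelled Suv39h1-KO. Each genotype had 1 H3K9me3 library and 1 input library, and the inputs were not analysed here. With 1 library per genotype there is no replicate error: intervals cover counting error only, and a difference between the genotypes cannot be told apart from a difference between 2 libraries. The number of mice behind a library is not stated in the labels. Island calls cannot check the genotype or the cell type, and none of the 20 genes in the T cell identity list, such as those of the T cell receptor complex, had an island in either library.

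H3K9me3 is the trimethylated form of lysine 9 of histone H3, a mark of compact and silent chromatin that HP1 proteins bind. SUV39H1 and its relative SUV39H2 write it mainly at satellite repeats around centromeres, and SETDB1 writes it at endogenous retroviruses and, guided by KRAB zinc finger proteins, at many gene clusters. In most somatic cells the mark lies over gene-poor chromatin, clusters of zinc finger genes and clusters of receptor genes that only sensory neurons use.

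Most of the genome under these pairs held no gene start, so the few promoters inside them are shown first. RefSeq promoter entries on the GRCm38.p6 assembly, which has the coordinates of mm10, placed the start of 40 protein-coding genes inside the stretch that both islands of a pair share, in 37 of the 816 pairs. The 300 bases around these starts (250 before and 50 after) had a median GC content of 37.2% and a median of 1 CpG, against 57% and 14 over all 20085 autosomal starts. At most 3 CpG were found in 35 of the 40 (87.5%), in 64.4% of 585 starts in WT islands outside the pairs, in 80.5% of 645 starts in KO islands outside the pairs and in 23.1% of all starts. The promoters inside pairs were therefore CpG-poor, and by this measure stood nearer to those of the other KO islands than to those of the other WT islands.

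Of these 40 starts, 20 belonged to olfactory receptor genes with 0 to 3 CpG, 4 to vomeronasal receptor genes with 0 to 2 and 4 to C2H2 zinc finger genes with 4 to 6. Only the start of Slc19a3, a thiamine transporter, had 10 or more CpG (11). The 250 bases before the start are printed below for 7 genes chosen to show this range, 5′ to 3′ in the direction of the gene, with each CpG in capitals and all other bases in lower case. In mm10 they lie at chr4:146512599-146512848 on the plus strand, chr4:147553027-147553276 on the plus strand, chr7:43177340-43177589 on the plus strand, chr2:111661203-111661452 on the plus strand, chr7:104687767-104688016 on the plus strand, chr17:13230013-13230262 on the plus strand and chr1:83038449-83038698 on the minus strand.
Zfp993: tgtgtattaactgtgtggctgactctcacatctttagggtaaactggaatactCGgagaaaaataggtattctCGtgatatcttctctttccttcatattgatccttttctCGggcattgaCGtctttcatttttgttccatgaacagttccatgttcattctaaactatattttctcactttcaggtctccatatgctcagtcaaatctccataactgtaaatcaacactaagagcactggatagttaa
Zfp985: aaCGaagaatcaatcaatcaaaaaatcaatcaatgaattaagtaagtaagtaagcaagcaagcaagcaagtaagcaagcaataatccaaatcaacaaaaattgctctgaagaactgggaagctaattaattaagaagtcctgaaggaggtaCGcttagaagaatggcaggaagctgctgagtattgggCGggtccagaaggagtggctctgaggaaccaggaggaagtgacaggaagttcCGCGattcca
Zfp936: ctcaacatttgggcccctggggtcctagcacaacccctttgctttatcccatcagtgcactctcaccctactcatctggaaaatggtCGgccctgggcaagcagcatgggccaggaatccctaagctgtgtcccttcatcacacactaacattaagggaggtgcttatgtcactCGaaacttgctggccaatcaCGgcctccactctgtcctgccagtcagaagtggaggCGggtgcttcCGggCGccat
Olfr1299: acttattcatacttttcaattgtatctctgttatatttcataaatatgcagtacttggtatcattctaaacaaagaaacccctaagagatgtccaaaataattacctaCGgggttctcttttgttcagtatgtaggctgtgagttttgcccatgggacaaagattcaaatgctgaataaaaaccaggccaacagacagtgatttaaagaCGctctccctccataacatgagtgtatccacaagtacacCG
Olfr661: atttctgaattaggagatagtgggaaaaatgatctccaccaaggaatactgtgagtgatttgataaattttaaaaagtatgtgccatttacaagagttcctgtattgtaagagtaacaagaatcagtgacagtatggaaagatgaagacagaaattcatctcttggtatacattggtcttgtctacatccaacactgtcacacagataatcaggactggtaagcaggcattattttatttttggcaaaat
Smok2b: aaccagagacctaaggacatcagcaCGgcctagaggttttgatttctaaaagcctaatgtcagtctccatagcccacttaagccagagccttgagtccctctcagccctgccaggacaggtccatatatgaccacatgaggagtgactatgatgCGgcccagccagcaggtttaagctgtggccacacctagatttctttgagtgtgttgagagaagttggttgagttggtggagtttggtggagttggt
Slc19a3: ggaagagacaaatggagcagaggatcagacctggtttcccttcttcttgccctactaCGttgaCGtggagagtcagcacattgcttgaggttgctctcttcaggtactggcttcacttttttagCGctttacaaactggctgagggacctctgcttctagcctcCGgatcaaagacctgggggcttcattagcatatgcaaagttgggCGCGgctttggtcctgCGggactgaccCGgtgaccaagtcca
The zinc finger promoters carried scattered CpG, and the Slc19a3 promoter carried the most in this set. The Olfr661 promoter, of an odorant receptor gene, had none. The motif TATAAA, searched on both strands of the 300 bases, was present in 10 of the 40 (25%) against 12.7% of all starts, and in 29.4% and 38.8% of those in WT and KO islands outside the pairs. CCAAT was present in 32.5% of the 40 and 38.1% of all, and CACGTG in 0 of 40 and 7.89% of all. A match is a description of the letters only.

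Of 919 autosomal miRNA hairpins in RefSeq, 1 lay in a pair, compared with 15 in all WT islands and 30 in all KO islands. It is Mir3084-1, on the minus strand within the gene Cbwd1 on chromosome 19. Its mature arms, with the seed (bases 2 to 8) in capitals, are shown because it is the only miRNA among these regions.
mmu-miR-3084-3p: uUCUGCCAgucuccuucagac
mmu-miR-3084-5p: gUUGAAGGuuaauuagcagagu
The island around it had 41.5 reads per kb in WT and 41.0 in KO, near the median of all pairs.

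A paired island was usually about 10 kb long. The WT islands of the pairs had a median length of 10 kb (middle 50% from 8 to 13, range 0.5 to 52.5) and the KO islands also of 10 kb (7.5 to 12.5, range 0.5 to 46.5). Their shared stretch had a median of 9 kb (7 to 12, range 0.5 to 45). Among the islands outside pairs, the 5121 WT islands that met a KO island below the limit had a median of 11 kb and the 6431 that met none of 10 kb. The 5502 KO islands that met a WT island below the limit had a median of 9.5 kb and the 19091 that met none of 8.5 kb. Paired KO islands were thus longer than KO islands without a WT partner, by 1.5 kb between medians, and paired WT islands were not.

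The pairs were the tightest part of a loose overlap. All WT and KO autosomal islands formed 6583 overlapping couples, and 816 of them (12.4%) reached the limit. The shared stretches of the pairs covered 8.09 Mb, which is 18.5% of the 43.7 Mb that islands of both libraries cover together. The whole islands of the pairs held 6.46% of the covered length and 7.16% of the reads of the WT islands, and 3.51% and 3.93% of those of the KO islands.

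Edges fell on a grid of 500 bp, which may be the step of the caller's windows, a setting that was not given. Both edges were identical in 66 pairs (8.09%), exactly 1 in 307 and none in 443. The median distance between the WT and KO positions of an edge was 0.5 kb, 75.1% of the 1632 edges lay within 1 kb of each other, and the farthest were 6.5 kb apart. The KO island lay within the WT island with at least 1 edge different in 252 pairs, the WT island within the KO island in 204, and in 294 each reached past the other on 1 side. The WT island was longer in 364 pairs and the KO island in 305, so the offsets went both ways. The 66 pairs with identical edges were shorter (median 7 kb) and denser (median 47.8 reads per kb in WT) than the 443 with no edge in common (WT median 40.9).

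**Figure D1:**
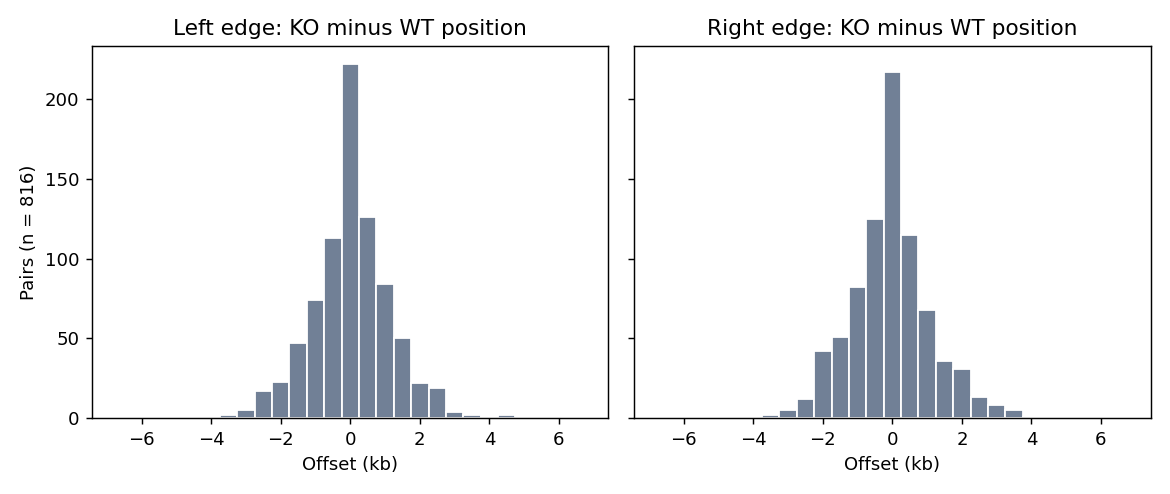
Number of pairs (vertical axis, 816 in all) by the KO minus WT position of the left and of the right island edge in kb, in bins of 500 bp. The tallest bar in each panel is at 0, with 222 pairs for the left and 217 for the right edge, and the offsets spread to both sides.

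The 80% limit cut through a continuum. The 154 pairs with an overlap of 80% to under 82% had a median WT length of 10.25 kb and a median KO to WT ratio of reads per kb of 0.982. The 100 couples just outside, with 78% to under 80%, had 9.5 kb and 0.983. Exactly 80% was reached by 57 pairs.

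Read density was close to equal in the 2 libraries. Density here is the read count that the authors' file gives an island, divided by its length, with no scaling for sequencing depth, which is not known from these files. The WT islands of the pairs had a median of 41.5 reads per kb (middle 50% from 39.0 to 45.2, range 33.2 to 787) and the KO islands 41.1 (39.2 to 44.0, range 33.2 to 798). The KO to WT ratio had a median of 0.988 (exact 95% order-statistic interval 0.981 to 0.996), with the middle 50% between 0.936 and 1.04 and a range from 0.727 to 1.41. It lay within 1.25-fold in 804 of 816 pairs. The KO island was the denser by more than that in 2 pairs (0.245%) and the WT island in 10 (1.23%). The exact Poisson intervals of the 2 densities were apart in 30 pairs, in 18 with more in WT and in 12 with more in KO.

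Islands outside the pairs had nearly the same densities, with WT medians of 40.3 and 40.4 reads per kb for those that met a KO island and those that did not, and KO medians of 40.8 and 39.9. Density is bounded from below by the caller, since a stretch with few reads is not called. Across the 816 pairs Pearson's r between the log2 densities of the WT and KO islands was 0.93 and Spearman's rho 0.617, and without the 8 pairs of 100 or more reads per kb r was 0.823. This is a correlation across regions of the same 2 libraries and carries no p. Longer WT islands of the pairs were less dense (Spearman rho = -0.444 across the 816).

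**Figure D2:**
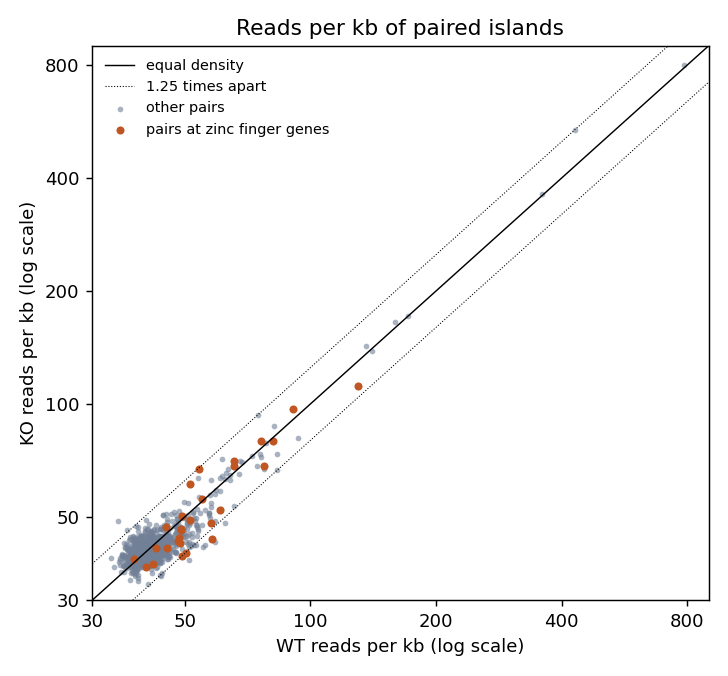
Reads per kb of the KO island (vertical, log scale) against the WT island (horizontal, log scale), 1 point per pair, with the line of equal density and dotted lines at 1.25-fold. Most points sit near 40 in both libraries, 12 lie beyond the dotted lines, and the orange points are the 28 pairs at genes of the C2H2 zinc finger list.

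The share of islands with a near-identical partner was highest among the densest islands. In the WT list it was 3.88% (exact 95% binomial interval 2.87 to 5.11) in the sparsest of 10 equal classes and 13.1% (11.3 to 15.1) in the densest. In the KO list the sparsest class had 1.102% (0.733 to 1.59) and the densest 5.63% (4.76 to 6.60). By length, 9 of 41 WT islands under 3 kb were paired (21.95%, 10.6 to 37.6), 6.17% to 8.32% in the classes from 3 to under 25 kb, and 9 of 207 of 25 kb or more (4.35%, 2.01 to 8.09). The KO list showed no such fall, with 5.99% under 3 kb (10 of 167), 2.03% from 3 to under 6 kb, 4.19% from 12 to under 16 kb and 3.26% at 25 kb or more.

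**Figure D3:**
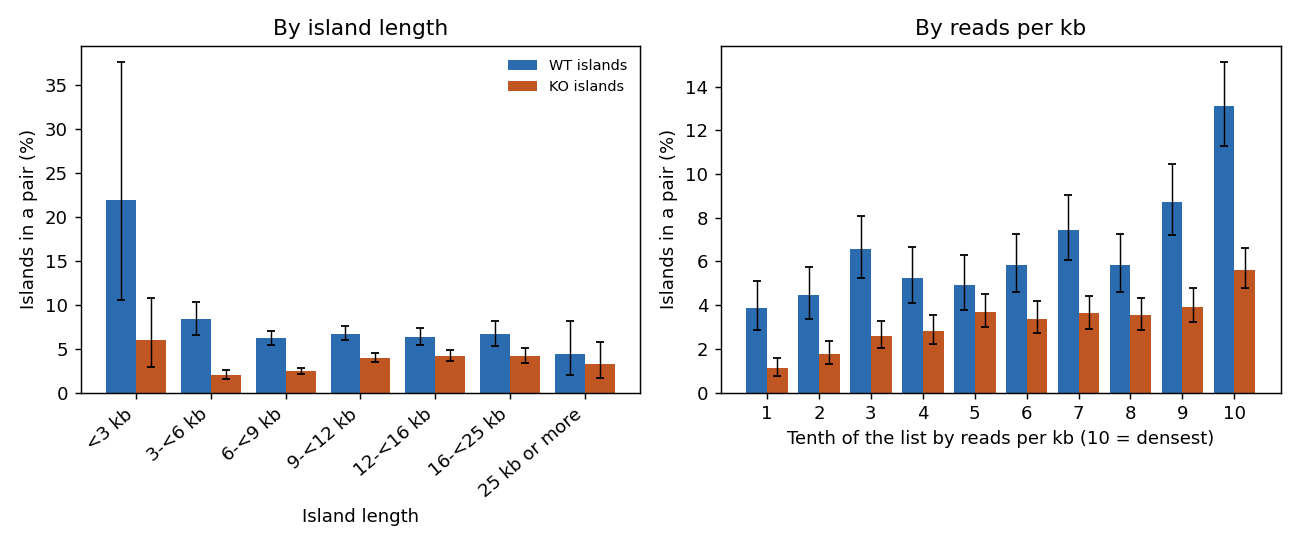
Percentage of WT (blue) and KO (orange) autosomal islands that are in a pair, by island length and by 10 equal classes of each list in order of reads per kb, with exact 95% binomial intervals as bars. The densest class has the highest share in both lists, 13.1% in WT and 5.63% in KO.

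The densest pairs ranged from 0.5 to 16.5 kb in length. The highest density was at chr11:3184001-3200500, the 16.5 kb stretch that touches Sfi1, Gm51877 and Eif4enif1, with 787 reads per kb in WT and 798 in KO and identical edges. It was followed by chr15:75084501-75087500 (WT coordinates) with 432 and 539, chr2:98662001-98668500 with 360 and 364, chr9:3000001-3002500 with 171 and 172 and chr11:3100001-3105000 with 159 and 166. The stretch at 4931408C20Rik on chromosome 1 had 141 and 138, and a second one at Sfi1, chr11:3172001-3173000, had 136 and 143. Except at chromosome 15, where KO had 1.25 times the WT density, each of these 7 pairs had the same edges in both libraries and Poisson intervals that overlapped. The last 3 of the 10 densest were the 0.5 kb pair at Zfp980 with 130 and 112, a pair at Zfp981 with 91.0 and 96.8, and a pair at Gm39469 with 93.4 and 81.2. Very dense stretches are known as places where reads of many genomic copies can pile up on 1 assembled sequence, and whether these are also high in the input libraries was not tested.

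Among the 38 pairs with a mean of 60 or more reads per kb, 18 lay on chromosome 4 and 8 touched a gene of the C2H2 zinc finger list given below. Another 17 touched no protein-coding gene. KO was the denser in 25 of these 38, compared with 358 of all 816 pairs (43.9%). With all pairs split into 4 equal classes by the mean density of their islands, the median ratio was 1.01, 0.990, 0.984 and 0.962 from sparse to dense. The 38 pairs, with a median of 1.01, lie within the last of these classes and had a higher median than it.

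The largest differences in density were modest. The most KO-rich pair lay at Olfr1299, an odorant receptor gene, with 34.6 reads per kb in WT and 48.9 in KO. C87114 on chromosome 16 followed with 36.4 and 46.1, then the chromosome 15 stretch given above, the pair at Smok2a and Smok2b, genes of sperm motility kinases, with 74.8 and 93.3, and a pair at Zfp985 with 54.0 and 67.3. The sixth, chr14:106644001-106655000 (WT coordinates), had 38.3 and 47.2 and touched no protein-coding gene.

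At the other end, chr18:61596001-61605000 had 59.1 reads per kb in WT and 42.9 in KO, the lowest ratio of all (0.727). Next came chr16:21048001-21054500 with 51.2 and 38.3, chr10:85060001-85069500 with 55.2 and 41.5, and a pair at Exoc6, which encodes a subunit of the vesicle-tethering exocyst, with 55.9 and 42.1. The fifth lay at the zinc finger gene Zfp930 with 58.0 and 43.8, and the sixth at B230307C23Rik with 62.4 and 48.1. In the 6 most KO-rich and the 6 most WT-rich pairs the Poisson intervals did not overlap, as the choice by size makes likely.

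Pairs lay far apart. The median distance from a pair to the next was 1585.5 kb (exact 95% order-statistic interval 1354 to 1810), with the middle 50% from 380.5 to 3900 kb and a range of 2 to 28562 kb over 797 gaps. The median gap was 70.5 kb between neighbouring WT islands and 24.5 kb between neighbouring KO islands. Short gaps were few: 94 of 797 (11.8%) were at most 100 kb, and 37 were at most 20 kb. WT islands covered a mean of 13.4% and KO islands 21.0% of the 50 kb on each side of a pair, against 5.67% and 10.4% of the autosomes. Islands that met a partner below the limit had flanks covered about as much or more, by 13.05% in WT and 26.2% in KO around the WT islands and by 18.5% and 23.2% around the KO islands. Neither library had another island in the flanks at 105 pairs (12.9%), against 2.83% of those WT and 0.691% of those KO islands. The figure was 24.3% for WT and 9.59% for KO islands that met no partner. A partner that overlaps below the limit can itself reach into the flank, so the contrast with those islands may in part follow from the rule. Within the same library it was smaller. No other WT island lay in the flanks of 34.3% of pairs and 32.6% of those WT islands. No other KO island lay there at 19.6% of pairs and 13.7% of those KO islands.

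**Figure D4:**
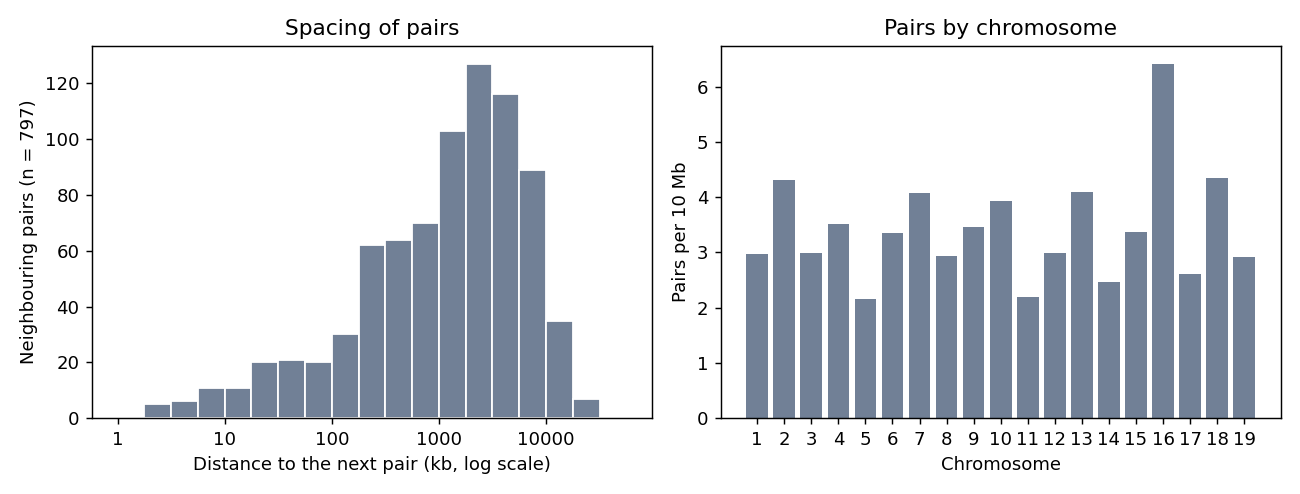
Left, number of gaps between neighbouring pairs by distance in kb (log scale, 797 gaps). Right, pairs per 10 Mb on each autosome. The middle 50% of the gaps lie between 380.5 and 3900 kb, and chromosome 16 stands highest with 6.42 pairs per 10 Mb.

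Linking pairs no more than 100 kb apart gave 68 chains of 2 or more pairs that held 162 of the 816. The chain with the most pairs, chr4:147398001-147613500, had 6 with 124 kb of shared stretch in 215.5 kb. It covers Zfp982, Zfp985 and Zfp979, and its median ratio was 1.05 with all 6 ratios above 1 (1.02 to 1.25). The second, chr7:43122501-43268500, had 5 pairs at Zfp936 and Gm35588 with a median ratio of 0.955. The third, chr4:146435001-146541000, had 4 at Zfp981 and Zfp993 with 1.01. The fourth, chr18:36861501-37104500, had 4 along the alpha protocadherin genes with 0.983. Another 15 chains had 3 pairs each. The one of these with the most shared length, chr16:84338001-84482000, had a median ratio of 0.968 and touched no protein-coding gene. Of the 4 chains with more than 3 pairs, 3 thus lay at zinc finger genes and 1 in the protocadherin cluster.

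Chromosome 16 had 61 pairs, 6.42 per 10 Mb, and chromosome 5 the fewest at 2.15. Only 24.6% of the chromosome 16 pairs touched a protein-coding gene. Measured as a share of WT islands, chromosomes 7 (9.62%) and 16 (9.59%) were highest and chromosome 11 (4.68%) lowest. In the windows taken as the first and last 2 Mb of the chromosomes 9.90% and 10.5% of WT islands were paired, against 6.45% between. The position at which the first window begins is not given. Its share rests on 20 of 202 islands, and its exact binomial interval (6.15 to 14.9) holds 6.45%. The interval of the last window was 7.15 to 14.7. Of KO islands 6.17% (3.81 to 9.37) and 6.95% (4.71 to 9.84) were paired in these windows, against 3.11% between.

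Fewer pairs touched a protein-coding gene than did not. A gene was counted as touched when its body, with 2 kb added on each side, met the shared stretch of a pair. By this count 312 pairs (38.2%, exact 95% binomial interval 34.9 to 41.7) touched 1 or more protein-coding genes. Taken over whole islands, the share was 38.7% for the WT and 38.8% for the KO islands of the pairs. It was 35.3% for WT islands that met a KO island below the limit and 42.0% for WT islands that met none. For KO islands it was 34.7% below the limit and 29.6% where no WT island was met. Paired KO islands (35.5 to 42.3) thus touched genes more often than unmatched KO islands (29.0 to 30.3). The latter were also shorter, and the part of length in this was not tested. The interval of the paired WT islands (35.4 to 42.2) overlapped that of the unmatched WT islands (40.7 to 43.2). Neither difference has a replicate check.

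Of the 816 shared stretches, 214 lay inside a protein-coding gene, 51 crossed an end, 24 were only within 2 kb and 23 held a gene whole. Another 99 met only other gene models and 405 met none. The 504 pairs that touched no protein-coding gene lay a median of 103 kb from the nearest, and 258 of them 100 kb or more. Long non-coding RNA genes were met by 79 pairs and pseudogenes by 43. Exons and introns were not separated here.

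The pairs touched 299 of 20558 autosomal protein-coding genes (1.45%). These genes were long, with a median of 118 kb against 17.6 kb for all, and long genes offer more length to meet. Of 1651 genes with an island in both libraries, 299 were touched by a pair (18.1%). At the 80% limit most such genes therefore held no pair. At a limit of 50% the pairs touched 837 genes. A gene lay whole inside a shared stretch in 26 cases, 41 were covered over at least 50% of the body, and 47 were touched by 2 or more pairs.

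The 10 longest pairs were a mixed group. The longest lay within Kcnq1, which encodes a voltage-gated potassium channel and sits in an imprinted domain. Its WT island was chr7:143201001-143253500 with 50.8 reads per kb, and its KO island chr7:143207501-143252500 with 49.1. The 45 kb they share hold 39.4 kb of Kcnq1ot1, the 83.4 kb antisense RNA gene that silences neighbours on the paternal chromosome. ChIP reads carry no strand, so those that fall there cannot be assigned to either gene. The next was the 45 kb stretch at chr16:3240001-3285000, with no protein-coding gene, at 81.8 reads per kb in WT and 87.3 in KO.

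The pair at Mup5, of the major urinary proteins, shared 41 kb (chr4:61820001-61861000) with 57.7 and 62.8 reads per kb, and held the whole 26.7 kb gene. Zfp982 followed with 37 kb (76.1 and 79.5), a gene-free stretch of chromosome 16 with 36 kb (40.9 and 39.6) and the Zfp981 and Zfp993 stretch with 29 kb (81.3 and 79.6). The Smok2a and Smok2b stretch (chr17:13211501-13239000) had identical edges over 27.5 kb and held both genes whole. The last were Mucl2, a mucin-like gene, with 27 kb (53.6 and 52.6), Gucy1a2, of a soluble guanylate cyclase subunit, with 25.5 kb (39.1 and 41.1), and Gm42346 with 22.5 kb (62.6 and 63.2). In 9 of these 10 the WT and KO densities differed by less than 1.1-fold, the Smok2 stretch being the exception.

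Genes were grouped into 33 lists, and 17 of them had a member touched. Most lists, that of the C2H2 zinc finger genes among them, were matched by a pattern of gene symbols. Family members under other names are therefore not counted. The largest share was that of the clustered protocadherins, cell-surface proteins that give neurons an individual identity, with 15 of 57 (26.3%). Over all autosomal protein-coding genes the share was 1.45%. Of the 39 protocadherin genes with an island in both libraries 38.5% were touched, against 18.1% over all genes. Both protocadherin figures rest on only 4 pairs on chromosome 18, because the alpha genes share their last exons and their annotated bodies overlap. A pair at chr18:37091001-37104500 was met by 13 of these gene models and had 42.4 reads per kb in WT and 43.2 in KO. The pair at Pcdhb4 and Pcdhb5 had 41.9 and 42.8. The 4 ratios were near 1, with a median of 1.02.

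C2H2 zinc finger genes had 23 of 463 members touched (4.97%) by 28 pairs, against 1.45% of all autosomal protein-coding genes. Of the 83 zinc finger genes with an island in both libraries, 27.7% were touched by a pair, against 18.1% over all genes. Zfp936, a gene of 77.9 kb, had 4 pairs, which covered 51.6 kb of the gene with 2 kb added on each side. No gene had more pairs, and Gm37013, Gm38666 and Gm38667 had as many. The latter are overlapping models along the protocadherin clusters of chromosome 18. Pairs at C2H2 zinc finger genes were dense, with a median of 49.95 reads per kb, taking the mean of WT and KO in each pair, against 41.3 for all pairs. Their median ratio was 0.944 (0.892 to 1.02), and 10 of 28 were denser in KO. Many of these genes are near-copies of each other, and no source used here says how reads that match several of them were counted.

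The zinc finger pairs were split into those on chromosome 4 and those elsewhere after the values were seen. The intervals below count each pair as separate, though 4 of the pairs elsewhere lie at 1 gene, Zfp936. They are a description and no support for the split. Those on chromosome 4 showed no clear direction, and most of the others were denser in WT. The 10 on chromosome 4 had a median of 70.9 reads per kb in WT and 69.5 in KO. Of these 10, 7 were denser in KO (70%, exact 95% binomial interval 34.8 to 93.3). Their median ratio was 1.03, with an order-statistic interval of 0.884 to 1.07 that holds 1. The median ratio of the others was 0.909 (0.860 to 0.955). The 18 on other chromosomes had medians of 48.8 and 43.4, and 15 were denser in WT (83.3%), compared with 455 of all 816 pairs (55.8%). In the densest of the 4 equal classes of all pairs, from a mean of 44.2 reads per kb, the median ratio was 0.962. The part of density in the lower ratio of the 18 was not tested. The 3 lowest ratios among these 18 were at Zfp930, with 58.0 reads per kb in WT and 43.8 in KO, Zfp712, with 50.3 and 40.1, and Zfp949, with 49.4 and 39.5. The 3 denser in KO were a pair at Zfp385b, with 37.8 and 38.5, and a pair each at Zfp936 with 45.1 and 47.1 and with 51.5 and 61.1. The other pairs at Zfp936 had 49.0 and 46.2, and 51.3 and 49.0, so its 4 pairs went both ways. The pair at Zfp809 and Zfp599 had 48.6 and 42.5. Zfp809 encodes a protein that recruits silencing to the primer binding site of murine retroviruses.

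Sensory receptor genes were touched at shares above the 1.45% of all autosomal protein-coding genes. Olfactory receptor genes, each used by a fraction of the sensory neurons of the nose, had 29 of 1103 touched (2.63%) by 26 pairs, with a median ratio of 1.01. Of 188 with an island in both libraries, these 29 are 15.4%, close to the share over all genes. The pair over Olfr1443 had 43.8 reads per kb in WT and 34.8 in KO, in contrast to Olfr1299 above, and that at Olfr91 had 38.5 and 37.0. The pair that held Olfr39 whole had 41.2 and 43.1. Type 2 vomeronasal receptors, which detect pheromones, had 6 of 121 touched (4.96%) and type 1 had 5 of 228 (2.19%). Of those with an island in both libraries, these were 17.6% of 34 and 18.5% of 27. Both are close to the 18.1% over all genes. The pair at Vmn2r83 had 45.8 and 43.6.

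Genes of neuronal signalling were touched at densities near the median of all pairs. Potassium channel genes had 6 of 92 touched (6.52%) by 10 pairs, and receptors for glutamate, GABA and glycine 4 of 45 (8.89%), against 1.45% of all autosomal protein-coding genes. Of those with an island in both libraries, these were 35.3% of 17 potassium channel genes and 19.05% of 21 receptor genes. The receptor share is close to the 18.1% over all genes. Genes touched by a pair are long, as given above, and the part of gene length in these shares was not tested. The 3 pairs of Kcnh7, a channel of the ether-a-go-go family, had 39.3, 46.8 and 37.6 reads per kb in WT and 40.5, 41.4 and 44.6 in KO, in order along the chromosome. The pair in Gabrb1, a GABA receptor subunit, had 40.8 and 38.5, and that in Grm5, a metabotropic glutamate receptor, had 39.0 and 39.9. Foxp2, a transcription factor gene of the developing brain, and Lrp1b, of a large endocytic receptor, also held 3 pairs each. Their densities ranged from 36.2 to 41.5 reads per kb over both libraries. Other cadherins had 3 of 42 touched, which were Pcdh15, Fat2 and Cdh12.

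Other groups had few members touched, and a count of 1 to 4 is to be read against the 1.45% of all genes. Of the germline list 1 of 19 was touched, Sycp1 of the meiotic synaptonemal complex, with 45.0 reads per kb in WT and 44.8 in KO. Nlrp9b, an oocyte-expressed gene, was 1 of 73 in its clusters, with identical edges and 45.4 and 42.2. Conjugating enzyme genes had 3 of 62, led by Ugt3a1 with 62.7 and 65.5. Of the solute carriers 4 of 376 were touched (1.06%), below the share over all genes, with Slc4a10, a bicarbonate transporter, at 2 pairs. Cyp2a12 was 1 of 98 cytochrome P450 genes (1.02%). Among 225 immunoglobulin variable segments 2 were counted (0.889%), Igkv3-7 and Ighv1-80, both only through the 2 kb added on each side. Kcnq1 was the only 1 of 33 imprinted genes.

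**Figure D5:**
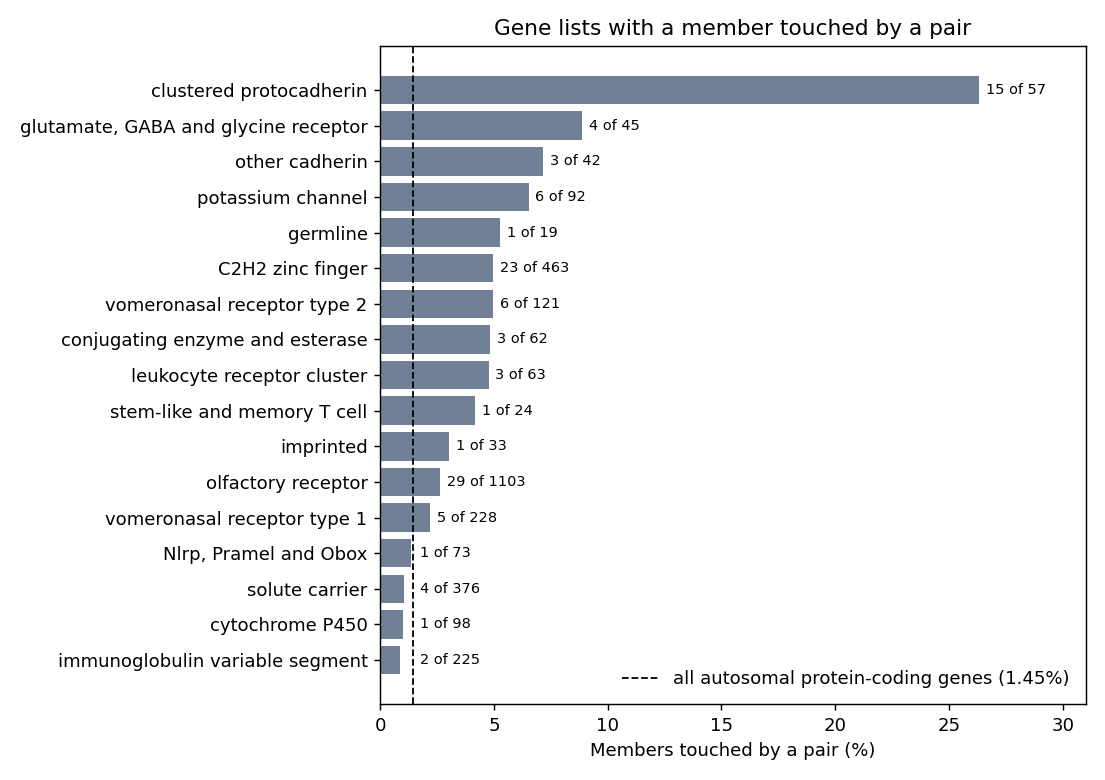
Percentage of the autosomal members of each of the 17 gene lists that were touched by a pair, with the counts beside the bars. The dashed line is the share over all autosomal protein-coding genes (1.45%), and the protocadherin bar (15 of 57) rests on 4 pairs.

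Of the genes in the T cell lists 1 was touched, and with lists of 16 to 25 genes and a share of 1.45% over all genes, such counts say nothing particular about T cell genes. In the stem-like and memory T cell list 1 of 24 was touched, and none was among the 25 effector genes, the 16 inhibitory receptor genes, the 20 identity genes or the 19 genes of other T lineages. That member is Bach2, which encodes a repressor that keeps T cells from terminal effector differentiation. Its WT island, chr4:32448501-32460500 inside the gene, had 594 reads (49.5 per kb, exact Poisson interval 45.6 to 53.6), and its KO island, chr4:32449001-32459500 and within the WT island, had 476 (45.3, 41.4 to 49.6). The 2 intervals overlap. It was the only WT and the only KO island at Bach2.

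Among the leukocyte receptor clusters 3 of 63 genes were touched (4.76%), against 1.45% of all autosomal protein-coding genes. They were Ms4a13, Ms4a12 and Ms4a19 on chromosome 19. The pair at Ms4a12 had 39.7 reads per kb in WT and 38.5 in KO. None of 24 other blood cell genes, 23 genes of the H3K9 methylation machinery or 18 housekeeping genes was touched. The lists of serpins, keratins, defensins, prolactin-family, killer lectin-like receptor, interferon-inducible, Hox, histone and T cell receptor variable genes also had none.

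Outside the lists, 3 genes whose products act in or on lymphocytes were picked after their values were seen. The pair inside Il15, the gene of a cytokine that sustains memory CD8+ T cells, had 51.1 reads per kb in WT (46.3 to 56.3) and 41.6 in KO (37.1 to 46.5). The pair inside Ikzf2, of the transcription factor Helios, had 53.8 (47.6 to 60.6) and 45.8 (40.1 to 52.1). The pair across an end of Ccr9, a gut-homing chemokine receptor, had 51.1 (44.7 to 58.2) and 47.6 (41.4 to 54.4). WT was the denser in all 3, as in 455 of all 816 pairs (55.8%), and the intervals overlapped in each. Because these 3 were picked, their common direction says nothing about such genes in general.

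The median KO to WT ratio was slightly lower in gene-rich surroundings, with spreads that overlapped widely. In megabases without the midpoint of a protein-coding gene the median ratio of reads per kb was 1.01, and it was 0.997, 0.979 and 0.967 in those with 1 to 4, 5 to 12 and 13 or more. The median density of the pairs, as the mean of WT and KO, went the other way, from 39.8 to 40.6, 42.0 and 43.6 reads per kb, and its part in the ratio was not tested. The same 88, 297, 256 and 175 pairs were 6.17%, 6.46%, 6.11% and 8.13% of the WT islands in these classes, and 1.73%, 2.54%, 4.27% and 6.63% of the KO islands. The KO list has 5099 islands in the megabases without genes and 2639 in the most gene-rich class, and the WT list 1427 and 2152. A KO island was thus matched more often where genes are dense, while the WT share was level over the first 3 classes.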

How the data were processed

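H3K9me3 ChIP-seq gave 1 WT and 1 Suv39h1-KO library from cultured CD8+ T cells. Per the submitters' processing notes, reads were aligned to mm10 with Bowtie2 and islands were called with SICER 1.1. The caller's window, gap, threshold and use of the input, and the treatment of duplicates, were not given in the sources used here. Each island in the deposited files comes with a read count in whole numbers, and the authors applied no scaling to it that the values show. Sequencing depth is therefore unknown: island counts sum to 5547695 in WT and 10020253 in KO over 12371 and 25424 islands, and follow the length that was called.

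Coordinates were converted to 1-based positions, and islands on the 19 autosomes were paired where the overlap was 80% or more of each. Reads per kb is the count over the island's length. Genes came from the RefSeq table of GRCm38.p6, with 2 kb added on each side, and 365 genes on other scaffolds were left out. Promoter windows (250 bases before, 50 after the start) and miRNAs came from RefSeq tables of the same assembly. Intervals are 95% Clopper-Pearson, exact Poisson or order-statistic intervals and cover counting error only. No test between genotypes was made. The scripts (Python 3.11.15, pandas 2.3.3, scipy 1.17.1) were tested on simulated islands with known overlaps.

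The members and the gene lists were chosen with earlier results of these data known. Genes were named by rule: those at the 10 longest and 10 densest pairs, the 6 highest and 6 lowest KO to WT ratios, the 5 genes with most pairs, the 5 longest genes whole inside a pair, the 5 chains with most pairs, up to 4 members per list and every touched member of a T cell list. Zfp712, Zfp949, Zfp809, Zfp599, Zfp385b, Il15, Ikzf2 and Ccr9 were named outside this rule, after their values were seen, and of the chains tied at 3 pairs the one with the most shared length was taken. Alternatives were other overlap limits, a density filter, joined islands, other gene flanks and, chosen after seeing the data, identical edges and leaving out the densest pairs.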

Additional observations from a re-analysis of the deposited data

How the results depend on the processing

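No paired analysis was possible because only 1 library of each genotype was analysed. Under 11 alternative settings, 37 of the principal values stayed close to those reported, 25 moved and 2 crossed equality. With overlap of at least 50% of each island, pairs numbered 3216 (26.0% of WT and 12.7% of KO islands), the shared stretch had a median of 8 kb, the median KO to WT ratio was 1.0014, 34.2% touched a protein-coding gene, the median distance was 269.5 kb and 837 genes were touched. With at least 90% there were 303 pairs (2.45% and 1.19%), 43.2% touching a gene, at 3937 kb, with 140 genes. With islands above the median density there were 387 pairs, with a shared stretch of 7.5 kb, a ratio of 0.978, 42.9% touching a gene, a distance of 3122 kb and 174 genes. With nearby islands joined the shares were 5.52% and 2.91%, the ratio 0.977 and the distance 2297.5 kb. With 10 kb around genes 45.5% of pairs touched one. With both edges identical (chosen after seeing the data) there were 66 pairs and a ratio of 1.0039. The direction of the median density difference thus changed with the choice of overlap. Depth, replicate spread and the input are unknown here, which limits every difference in density.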

Other observations

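Outside the autosomes few islands were called in either library. Chromosome X had 2 WT and 9 KO islands and no pair by the 80% rule. Chromosome Y had 1 and 4 islands with 1 pair, and the mitochondrial sequence had 0 and 2. These islands enter none of the values above.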
